A study of Mus musculus with 4 samples.

Results

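The genes described here are 10 interferon-induced antiviral effectors, from a list of names chosen with earlier results of these data known. They are Oas2, Oas3, Oasl1, Oasl2, Ifit1, Ifit2, Ifit3, Isg15, Usp18 and Rsad2. A gene's level was that of its probe set with a single gene symbol, or of the one with the highest mean where it had several. By this rule 9 of the 10 had a level, among 19938 genes in all. The probe set of Isg15 also names Gm9706, so Isg15 has no level here. The remaining 9 had 1 probe set each.

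Expression was measured on 4 arrays of sorted crypt cells from the small intestine of adult mice given tamoxifen for 2 days. All mice carried villin-CreERT2, in which the villin promoter drives a tamoxifen-inducible Cre in intestinal epithelium, and an Lgr5-EGFP-ires-CreERT2 allele. The Zip7 KO mice were Zip7flox/flox and the control mice Zip7flox/+, so the controls also had 1 floxed copy of the zinc transporter gene under the same Cre. Each genotype gave 1 array of cells labelled Lgr5-Hi and 1 of cells labelled Lgr5-Med (Lgr5-Mid in the titles). How many animals contributed to an array is not stated. No group was replicated, so the spread between animals is unknown, and no difference below was tested.

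Some facts of the arrays touch every result. The targeted gene Slc39a7 stood at 9.02 in the KO array against 8.92 in the control array under the label Lgr5-Hi, and at 8.22 against 8.61 under Lgr5-Med, and the place of its probes relative to the floxed part was not analysed here. Lgr5 was lower under the label Lgr5-Hi than under Lgr5-Med, at 7.93 and 11.24 in KO and 7.79 and 10.97 in control, so the fraction labels go against the marker and are used here as names only. Xist was at 5.59 and 5.43 in the KO arrays and at 11.64 and 11.84 in the control arrays, so sex and genotype cannot be told apart. The epithelial markers Epcam, Cdh1 and Krt8 were above the floor of expression on all 4 arrays. That floor was percentile 95 of the values, on the same array, of 1207 sensory receptor genes of the nose, which the gut epithelium was taken not to express, and lay between 6.10 and 6.25.

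Interferons are secreted when cells sense viral or microbial nucleic acid. Type I interferons signal through Ifnar1 and Ifnar2, and type III interferons, to which gut epithelium responds strongly, through Ifnlr1 and Il10rb. Both lead through the kinases Jak1 and Tyk2 to transcription factor complexes that include STAT2 and IRF9. These bind interferon-stimulated response elements, whose core repeats the letters GAAA, near the start of genes such as those described here.

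The antiviral effectors were lower in both Zip7 KO arrays than in both control arrays. This was so for 8 of the 8 genes that passed the floor, and also for the values of Ifit2 below it, where 15.9% of the 12404 genes that passed the floor on any array showed the same order. Under the label Lgr5-Hi, 6 of these 8 were at least 2-fold lower in Zip7 KO, against a background of 0.234% of 11988 genes. Under Lgr5-Med it was 8 of 8, against 0.621% of 12243 genes. None was at least 2-fold higher, against 0.25% and 0.0653% of the same genes. Of the 8, Ifit1 and Ifit3 under Lgr5-Hi, and Oas3, Ifit3 and Usp18 under Lgr5-Med, were above the floor only in control. These could enter that comparison only by being lower in KO, so the counts are descriptions. Over all 9 genes with a level, 6 and 8 were at least 2-fold lower. The same 6 genes, Oas2, Oas3, Oasl2, Ifit1, Ifit3 and Usp18, were at least 2-fold lower under either label, as were 0.22% of the 11827 genes counted in both. Ifit2 was below the floor on all 4 arrays.

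**Figure D1:**
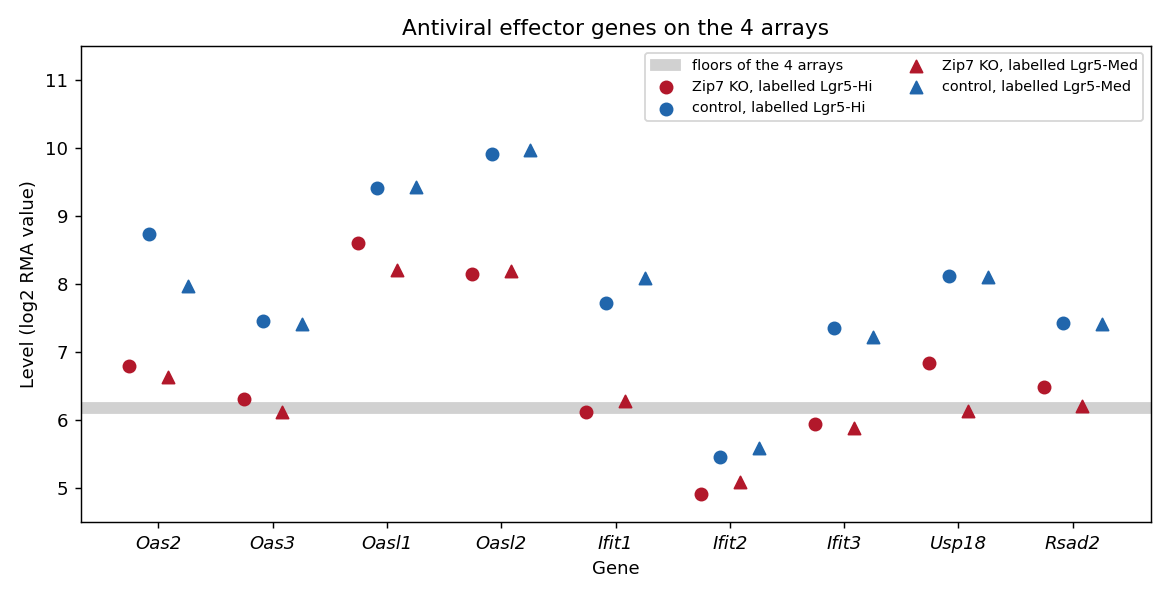
Level of each of the 9 genes (log2 RMA value, vertical axis) on the 4 arrays, 1 point per array, with Zip7 KO in red and control in blue, circles for the label Lgr5-Hi and triangles for Lgr5-Med. The grey band spans the floors of the arrays, 6.10 to 6.25. In each gene both red points lie below both blue points, and the points of Ifit2 all lie below the band.

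The letters around the start sites of these genes are shown as a description. The genes were listed as interferon-induced, so matches to a response element do not depend on the array values. Promoter windows of 300 bases, from 250 before to 50 after the start of transcription, came from RefSeq on GRCm38.p6 and held 8 of the 10 genes. The motif searched was GAAA, then any 2 bases, then GAAA again, on either strand (on the opposite strand it reads TTTC, any 2 bases, TTTC), with overlapping matches counted separately. It was present in the windows of Isg15, Oas3, Rsad2, Ifit3 and Ifit1, which is 5 of 8. Of all 27025 genes with such a window 3.99% held it, and of all 32851 windows 3.44%. The windows of the 4 genes with both a match and a level are printed 5′ to 3′ on the gene's strand, with the matches in capitals: Ifit1 at chr19:34640639-34640938 (plus strand), Ifit3 at chr19:34583279-34583578 (plus), Oas3 at chr5:120777610-120777909 (minus) and Rsad2 at chr12:26456403-26456702 (minus).
Ifit1: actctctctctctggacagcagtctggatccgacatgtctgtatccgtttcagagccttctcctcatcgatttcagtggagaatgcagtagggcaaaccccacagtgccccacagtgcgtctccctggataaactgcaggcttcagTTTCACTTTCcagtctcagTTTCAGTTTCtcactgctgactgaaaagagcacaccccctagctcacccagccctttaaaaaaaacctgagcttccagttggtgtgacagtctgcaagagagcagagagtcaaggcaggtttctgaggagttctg
Ifit3: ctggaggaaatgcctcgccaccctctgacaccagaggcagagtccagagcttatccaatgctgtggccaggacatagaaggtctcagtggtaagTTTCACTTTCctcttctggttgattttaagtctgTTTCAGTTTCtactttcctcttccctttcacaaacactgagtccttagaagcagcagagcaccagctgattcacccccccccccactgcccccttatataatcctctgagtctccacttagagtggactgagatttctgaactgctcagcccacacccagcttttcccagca
Oas3: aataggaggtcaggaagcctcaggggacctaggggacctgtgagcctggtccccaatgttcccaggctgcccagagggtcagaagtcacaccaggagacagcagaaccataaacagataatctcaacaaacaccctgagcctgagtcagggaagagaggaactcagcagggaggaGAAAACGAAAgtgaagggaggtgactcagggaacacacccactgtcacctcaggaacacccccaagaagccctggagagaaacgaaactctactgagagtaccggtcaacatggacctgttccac
Rsad2: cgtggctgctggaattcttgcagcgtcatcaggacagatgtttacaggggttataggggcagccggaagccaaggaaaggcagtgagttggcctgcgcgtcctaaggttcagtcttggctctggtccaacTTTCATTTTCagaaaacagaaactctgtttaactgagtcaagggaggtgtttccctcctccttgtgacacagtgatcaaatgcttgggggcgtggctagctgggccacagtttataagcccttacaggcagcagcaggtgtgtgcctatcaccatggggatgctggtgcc

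Ifit1 and Ifit3 each had 2 matches, both on the opposite strand, with the same letters in the same order. They began 104 and 85 bases before the start in Ifit1, and 156 and 122 bases before it in Ifit3. Oas3 had 1 match, which began 75 bases before the start, and Rsad2 had 1 on the opposite strand that began 120 bases before it. In the window of Isg15, 3 overlapping matches began between 78 and 66 bases before the start. The windows of Oasl1, Oasl2 and Ifit2 did not hold these letters. A match is a description of the letters and not a measured site. Among the genes with a window, the motif was present in 3.43% of the 9601 in the comparison under Lgr5-Hi. It was present in 6 of the 16 genes at least 2-fold lower there that are not among the antiviral effectors. Under Lgr5-Med these were 3.42% of 9798 and 7 of 47. The 16 and 47 genes were picked by their differences on these arrays, and a part of the motif in the differences was not tested.

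The OAS family enzymes bind double-stranded RNA and make short oligoadenylates that activate the nuclease RNase L. Oas2 stood at 6.79 in the KO array and 8.73 in the control array under the label Lgr5-Hi. Under Lgr5-Med it was at 6.63 in KO and 7.97 in control. The differences were -1.94 (3.84-fold lower) and -1.34 (2.53-fold lower) on the log2 scale. The first of these was rank 4 from the lowest among 11988 genes, and the second rank 34 among 12243. The 2 control arrays of Oas2 differed more from each other than those of any other antiviral effector, yet both lay above both KO arrays.

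Oas3, the next gene to Oas2 on chromosome 5, was at 6.31 in KO and 7.46 in control under Lgr5-Hi. Under Lgr5-Med it was at 6.12, below the floor, in KO and at 7.42 in control. It was 2.22-fold lower in KO in the first pair (-1.15) and at least 2.39-fold lower in the second (-1.26 or lower, with the floor in place of the KO value). Both KO values lay below both control values, which differed by 0.04 from each other.

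The 2 OAS-like genes lie next to each other elsewhere on chromosome 5. Oasl2 was at 8.15 in KO and 9.91 in control under Lgr5-Hi, and at 8.19 and 9.97 under Lgr5-Med. It was 3.38-fold and 3.43-fold lower in KO, with differences of -1.76 and -1.78, and its 4 values fell into 2 pairs by genotype. Oasl1, which in mice restrains translation of the interferon regulator Irf7, was at 8.60 in KO and 9.41 in control under Lgr5-Hi. Under Lgr5-Med it was at 8.21 in KO and 9.43 in control. It was 1.75-fold lower (-0.81) in the first pair, short of 2-fold, and 2.33-fold lower (-1.22) in the second.

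Of 11 further OAS and IFIT genes that are not in the list described here, 9 had a level and 3 passed the floor on any array. Oas1a, an oligoadenylate synthetase, was at 6.45 in KO and 7.76 in control under Lgr5-Hi, and at 7.07 and 7.72 under Lgr5-Med. It was lower by 2-fold or more in the first pair only (-1.31 and -0.65), and the difference between the pairs was not tested. Oas1b was at 5.80 in KO, below the floor, and 6.21, also below it, in control under Lgr5-Hi. Under Lgr5-Med it was at 5.47 in KO, below the floor, and at 6.11 in control. Oas1c, Oas1d, Oas1e, Oas1f and Oas1h were below the floor on all 4 arrays.

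The IFIT proteins bind viral RNA, and IFIT1 blocks translation of messages whose cap lacks the methylation of host RNA. The genes lie together on chromosome 19. Ifit1 was at 6.12, below the floor, in KO and 7.73 in control under Lgr5-Hi, and at 6.28 in KO and 8.09 in control under Lgr5-Med. It was at least 2.92-fold lower in KO in the first pair (-1.55 or lower) and 3.51-fold lower in the second (-1.81). The KO values lay near the floor, and both control values were well apart from them.

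Ifit3, which in human cells stabilises IFIT1, was below the floor in both KO arrays, at 5.94 under Lgr5-Hi and 5.88 under Lgr5-Med. The control values were 7.36 and 7.23. With the floor in place of the KO values it was at least 2.27-fold and at least 2.10-fold lower in KO. Ifit2 was at 4.92 in KO and 5.45 in control under Lgr5-Hi, and at 5.10 and 5.59 under Lgr5-Med. All 4 values of Ifit2 were below the floor, so no fold is given.

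Ifit1bl2, the neighbour of Ifit1 in the same cluster, was above the floor on all 4 arrays, at 6.48 in KO and 6.40 in control under Lgr5-Hi, and at 6.52 and 6.61 under Lgr5-Med. It differed by 0.08 and -0.10, while Ifit1 differed as given above. Ifit3b, a near copy of Ifit3, was below the floor on all arrays, at 3.95 to 4.20. How far probes of such related genes pick up each other's RNA was not tested.

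ISG15 is a ubiquitin-like protein that is joined to other proteins in infected cells, and Usp18 removes it and also damps signalling at the type I receptor. Usp18 was at 6.84 in KO and 8.11 in control under Lgr5-Hi. Under Lgr5-Med it was at 6.13, below the floor, in KO and at 8.10 in control. It was 2.41-fold lower in KO in the first pair (-1.27) and at least 3.84-fold lower in the second (-1.94 or lower). The control values differed by 0.01, and the KO values by at least 0.68.

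Genes that work with ISG15 and RNase L were read from a list of 9, of which 7 had a level. Herc6, a ligase that in mice joins ISG15 to its targets, was below the floor in both KO arrays, at 5.87 and 5.64, against 7.04 and 7.38 in control, and so at least 1.82-fold and at least 2.33-fold lower. The E1 enzyme gene Uba7 differed by -0.22 and -0.50, the E2 enzyme gene Ube2l6 by -0.60 and -0.55, and Trim25 by -0.55 and -0.52. Abce1, an inhibitor of RNase L with a main role in ribosome recycling, differed by 0.33 and 0.15, and Pde12, which degrades oligoadenylates, by -0.0049 and 0.23. By the deposited values, Herc6 alone of the 7 passed 2-fold, under both labels. Over all genes counted under both labels, 0.22% were at least 2-fold lower in both.

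Rsad2 encodes viperin, an enzyme that makes a nucleotide which stops viral RNA synthesis. It was at 6.48 in KO and 7.42 in control under Lgr5-Hi, and at 6.22 and 7.41 under Lgr5-Med. It was 1.92-fold lower (-0.94) in the first pair and 2.30-fold lower (-1.20) in the second. Its neighbour on chromosome 12, Cmpk2, a nucleotide kinase that supplies viperin's substrate, was at 7.39 in KO and 8.05 in control under Lgr5-Hi, and at 7.21 and 8.04 under Lgr5-Med. Cmpk2 was lower in KO as well, by less than 2-fold (-0.67 and -0.83).

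Over the 8 genes that passed the floor on any array the median difference was -1.35 under Lgr5-Hi and -1.34 under Lgr5-Med, beside 0.02 and -0.03 over all genes in these comparisons. Over all 9 genes with a level it was -1.27 and -1.34. The middle 95% of all genes ran between -0.43 and 0.45 under Lgr5-Hi and between -0.54 and 0.36 under Lgr5-Med. Of the 8, Ifit1 and Ifit3 under Lgr5-Hi, and Oas3, Ifit3 and Usp18 under Lgr5-Med, were above the floor only in control. These could enter a comparison only by being lower in KO, so the counts and medians over the 8 are descriptions.

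**Figure D2:**
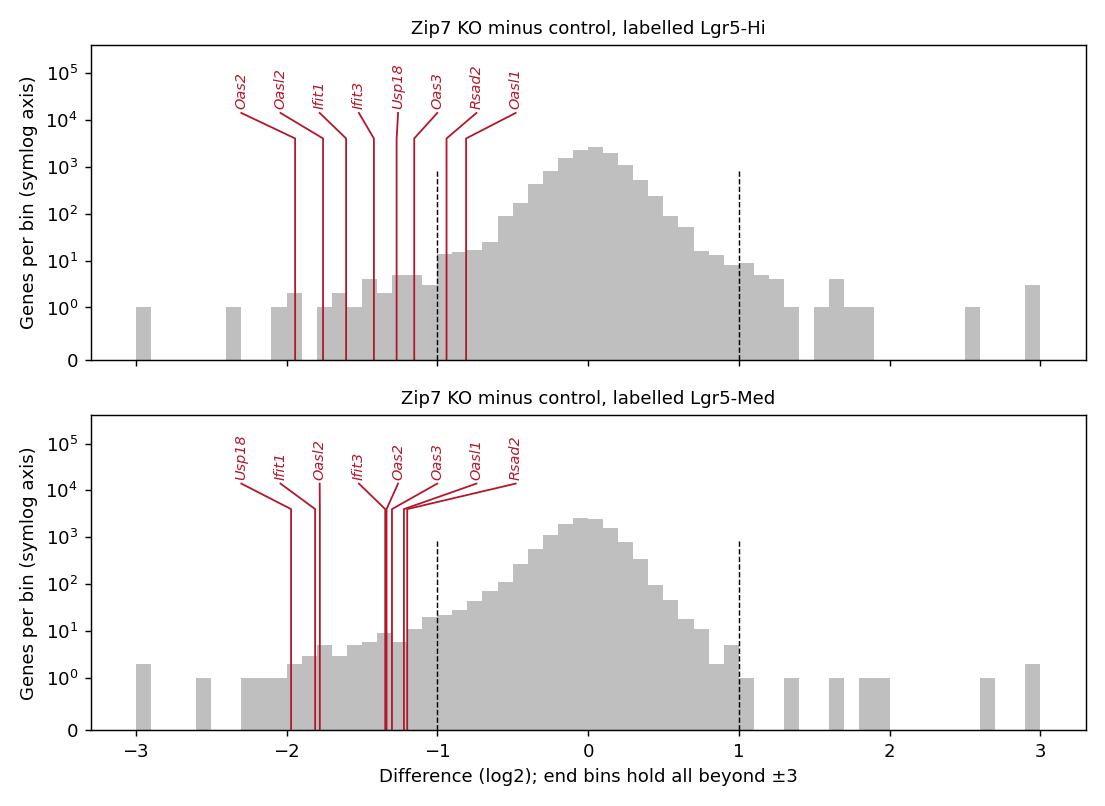
Number of genes per bin of 0.1 (vertical axis, symmetric log scale) by difference, Zip7 KO minus control on the log2 scale (horizontal axis), for arrays labelled Lgr5-Hi (top) and Lgr5-Med (bottom). Red lines mark the 8 antiviral effectors above the floor and dashed lines 2-fold. The red lines lie in the left tail, 6 of them past 2-fold in the top panel and 8 in the bottom panel.

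Upstream of these effectors, the ligand and receptor genes that passed the floor differed by less than 2-fold. Of 18 interferon genes 14 had a level. Of these 11, among them Ifnb1, Ifng and Ifne, were below the floor on all 4 arrays, so no difference could be read in them. Ifnl2, a type III interferon, was at 8.02 in KO and 8.31 in control under Lgr5-Hi and at 8.38 and 8.16 under Lgr5-Med. Ifna5 differed by -0.06 and 0.17, and Ifnz by -0.03 and 0.43. No ligand passed 2-fold, and the signs differed between the labels.

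Among the receptor chains Ifnar1 was at 8.68 in KO and 8.51 in control under Lgr5-Hi, and at 8.60 and 8.62 under Lgr5-Med. Ifnar2 differed by -0.01 under both labels, Il10rb by 0.0011 and -0.02, and Ifnlr1 by 0.21 and -0.35. The interferon gamma receptor chains Ifngr1 and Ifngr2 differed by 0.36 and -0.03 under Lgr5-Hi and by 0.22 and -0.31 under Lgr5-Med. The kinase Jak1 differed by 0.09 and -0.14 and Tyk2 by -0.16 and -0.44. None of these reached 2-fold, which by the shares of all genes given above does not set them apart from other genes.

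Interferon-induced transcription factors were among the lower genes. Stat2 was at 7.81 in KO and 8.77 in control under Lgr5-Hi and at 7.58 and 8.72 under Lgr5-Med, with differences of -0.96 and -1.14. Its partner Irf9 differed by -0.63 and -0.93. Irf7, which drives interferon genes, differed by -1.12 and -1.84, whereas Irf3, which is present before infection, differed by 0.21 and -0.09. Of the 20 receptors, kinases, factors and inhibitors with a level, 1 was at least 2-fold lower under Lgr5-Hi and 2 were under Lgr5-Med. None was higher by that size. Over all genes 0.234% and 0.621% were lower by that size, and 0.25% and 0.0653% higher. By sign, 11 of the 20 were lower under Lgr5-Hi and 17 under Lgr5-Med, with medians of -0.02 and -0.33. In 10 of the 20 both KO values lay below both control values, beside 15.9% of all genes that passed the floor.

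Sensors of foreign nucleic acid and their adaptors were mixed. Zbp1, a sensor of Z-form nucleic acid, was at 7.29 in KO and 8.71 in control under Lgr5-Hi and at 6.93 and 8.72 under Lgr5-Med. Dhx58 (LGP2), an RNA helicase of the RIG-I family, differed by -1.24 and -1.52. The adaptor Ticam1 was higher by 0.69 and the kinase Ikbke by 0.56 in KO under Lgr5-Hi, against -0.15 for each under Lgr5-Med. Of the 12 sensors and adaptors in each comparison, Zbp1 and Dhx58 passed 2-fold in both. Over all genes counted under both labels, 0.22% were at least 2-fold lower in both.

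Other interferon-stimulated genes were read from a list of 57, of which 48 had a level. Of the 34 in the comparison under Lgr5-Hi, 33 were lower in KO and 4 at least 2-fold lower. Under Lgr5-Med 35 of 37 were lower and 11 at least 2-fold lower. Over all genes 0.234% and 0.621% were at least 2-fold lower. None of the list was 2-fold higher under either label, beside 0.25% and 0.0653% of all genes. The medians were -0.51 and -0.69, beside 0.02 and -0.03 over all genes. Of the listed genes, 29 of the 34 and 28 of the 37 were above the floor in KO, and all were in control. So 5 and 9 could enter only by being lower in KO. Over all 48 with a level, 45 and 43 were lower, with medians of -0.43 and -0.53. At the low end were Rtp4, below the floor in both KO arrays and at least 3.64-fold and at least 4.04-fold lower, and the TRIM family gene Trim30a, at least 2.54-fold and at least 3.26-fold lower. At the high end were the exonuclease gene Isg20, at 0.60 under Lgr5-Hi, and Ifitm2, a membrane protein that limits viral entry, at 0.27 under Lgr5-Med.

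**Figure D3:**
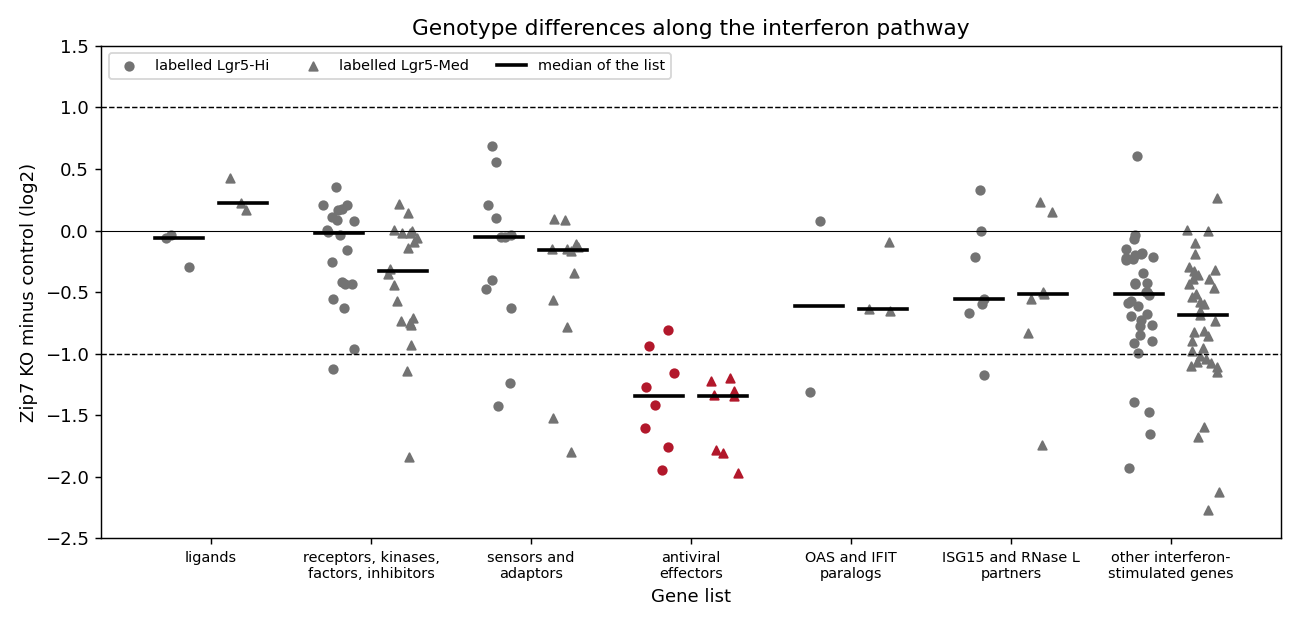
Difference of each gene, Zip7 KO minus control on the log2 scale (vertical axis), by gene list (horizontal axis), with circles for the label Lgr5-Hi, triangles for Lgr5-Med and bars for the list's median. Genes that passed the floor on either array are drawn, dashed lines mark 2-fold, and the antiviral effectors are in red. Their medians are -1.35 and -1.34, and those of the ligands -0.06 and 0.23.

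Most lymphocyte markers moved with these genes. Of 21 lymphocyte markers with a level, 17 were lower in both KO arrays than in both control arrays. Of the 13 that passed the floor on any array, 11 showed this order, beside 15.9% of all genes that passed it. Among the 11, Ptprc, Cd3g, Cd8b1 and Itgae were above the floor only on control arrays, so only their control values brought them in. Cd8b1 was at 5.92 in both arrays under Lgr5-Hi, below the floor. The count is a description. Gzmb, a protease of cytotoxic cells, was at -1.47 under Lgr5-Hi and -2.55 under Lgr5-Med. The exceptions among the 13 were Cd247, higher in both KO arrays (0.09 and 0.18), and Cd79b (-0.10 and -0.16). The summed linear level of all 21 was 1880 and 2004 in the KO arrays and 3339 and 4459 in the control arrays. The T cell marker Cd3e was at 6.98 and 6.87 in KO and 7.57 and 7.80 in control, while Cd4, Cd79a and Ms4a1 were below the floor on all 4 arrays. Of 15 myeloid and dendritic markers 2 showed that order, and both were among the 7 that passed the floor on any array. The sums over all 15 were 2402 and 1808 in KO against 2525 and 2094 in control. Csf1r, Adgre1 and the plasmacytoid dendritic cell marker Siglech were below the floor throughout. Fewer cells of a type and less RNA per cell cannot be told apart in such bulk arrays, and the part of these cells in the values of the antiviral genes was not tested.

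Markers of epithelial subtypes differed in their own ways. The 10 Paneth cell markers had a median of -0.67 under Lgr5-Hi and -1.38 under Lgr5-Med, with summed linear levels of 38437 and 19122 in KO against 50752 and 35806 in control. The 14 enterocyte markers with a level had medians of -0.0037 and -0.47, and sums of 46867 and 37752 in KO against 45571 and 48708 in control. The 9 stem cell markers had medians of -0.10 and 0.11, with sums of 11147 and 28268 in KO against 12340 and 24894 in control. The part of these shifts in the antiviral values was not tested.

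The antiviral effectors were also compared between the fractions. None of the 7 in the comparison within KO and none of the 8 within control was 2-fold higher or lower in the array labelled Lgr5-Hi than in that labelled Lgr5-Med. Over all genes 1.87% were higher and 0.751% lower by that size in KO, and 0.669% and 0.523% in control. With shares this small, these counts do not set the effectors apart from other genes. The median of the effectors was 0.19 in KO and 0.01 in control, beside -0.0045 and -0.04 over all genes. These comparisons share their arrays with the genotype comparisons.

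Oas2 was higher under Lgr5-Hi by 0.16 in KO and 0.77 in control, the control value at rank 148 from the highest of 12248 genes. Usp18 was higher by at least 0.68 in KO and by 0.01 in control. Oasl1 differed by 0.40 in KO and -0.01 in control, Rsad2 by 0.27 and 0.01, and Oas3 by at least 0.14 and by 0.04. Ifit1 was lower under Lgr5-Hi in both genotypes, by -0.10 or lower in KO and by -0.36 in control. Oasl2 was at -0.04 and -0.06. Taken as the genotype difference under Lgr5-Hi minus that under Lgr5-Med, the values ran from -0.61 for Oas2 to 0.70 for Usp18, and these were not tested.

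**Figure D4:**
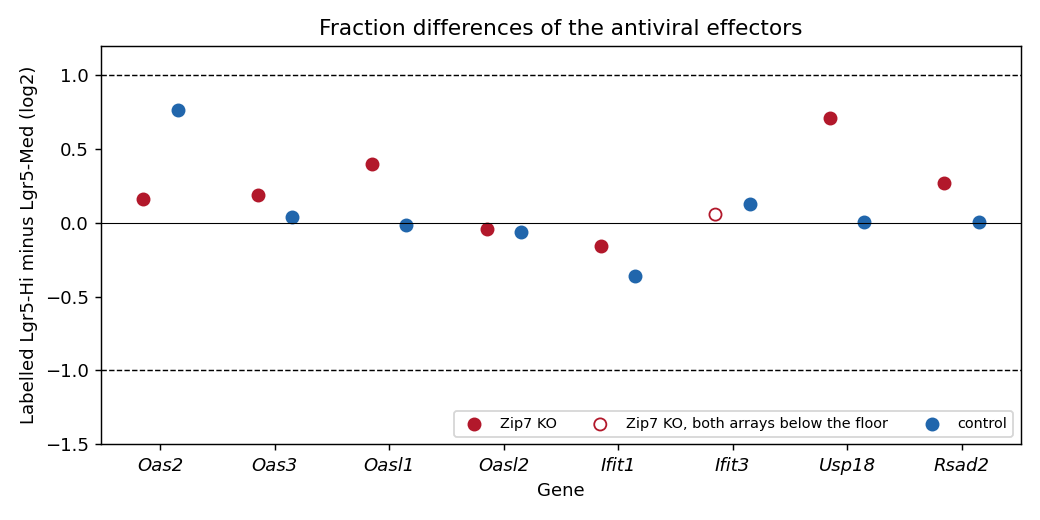
Difference between the array labelled Lgr5-Hi and that labelled Lgr5-Med on the log2 scale (vertical axis) for 8 antiviral effectors, with Zip7 KO in red and control in blue and dashed lines at 2-fold. The open point is Ifit3 in KO, below the floor on both arrays. No point passes 2-fold, and the farthest from 0 are Oas2 in control, at 0.77, and Usp18 in KO, at 0.71.

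The genes whose 4 values were most like the mean pattern of the 8 effectors were sought among 12396 other genes that passed the floor on any array. The measure was the Euclidean distance between values centred on each gene's mean, over 4 arrays, and genes of like size and direction of difference come first by its construction. The 10 nearest were Dhx58 (distance 0.093), Sp100 (0.117), Zbp1 (0.221), Ddx60, Herc6, Tap1, Rnf213, Stat2, Slc5a4a and Gzma (0.415). Of these 6 belong to the interferon lists read here. The effectors themselves lay between 0.120 (Ifit3) and 0.540 (Oas2) from their own mean, and the median distance over the other genes was 1.46.

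Tap1, a peptide transporter of antigen presentation that was in none of these lists, was at 8.13 in KO and 9.11 in control under Lgr5-Hi and at 7.60 and 9.02 under Lgr5-Med. Rnf213, a large ubiquitin ligase, was at 9.22 and 10.33, and at 9.26 and 10.36, in the same order. Slc5a4a, a sugar transporter family gene, differed by -0.83 and -1.68. Gzma, a lymphocyte protease among the markers above, differed by -1.25 and -1.33.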

How the data were processed

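Biotin-labelled cDNA from total RNA of sorted crypt cells was hybridised to Affymetrix arrays, 1 for each of 4 groups. The authors deposited a log2 value for each probe set, made with RMA per the submitters' processing notes; the software, its version and which arrays were normalised as one set were not stated there. The log base was read from the values (3.08 to 14.6, array medians 6.34 to 6.45). All 4 columns were used. The number of arrays limits the precision.

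Of 35557 probe sets, 21789 had 1 gene symbol in the platform annotation, 1621 several and 12147 none. Of the first kind, 21698 matched the RefSeq gene table (GRCm38.p6, used for names, order and promoters only). Taking the highest probe set by mean gave 19938 genes. A gene entered a comparison if above the floor (percentile 95 of receptor genes on that array) on at least 1 of its 2 arrays, and the receptor genes were left out. The count rule was 2-fold, 1 on the log2 scale, with no test and no p-value. Where 1 value was at or below the floor, the floor replaced it in the values given as bounds ("at least" or "or lower"). Counts, medians, ranks, distances, figures and all other differences used the deposited values, also below the floor. The code was tested on simulated data. Alternatives covered the floor, the probe set rule, the scaling and the size of the fold.

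The genes described and the lists beside them were chosen with earlier results of these data known. All 10 antiviral genes were named. Paralogs above the floor, ligands and receptors were named, with the 2 lowest and 2 highest genes of each other pathway list as a guide, the 10 nearest genes by pattern, and markers where they stand beside a result. Other pathway genes and paralogs named for their role were chosen after their values were seen. Python 3.11.15, numpy 2.4.6, pandas 2.3.3, statsmodels 0.14.6 and matplotlib 3.10.9 were used.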

Additional observations from a re-analysis of the deposited data

Results flagged for a closer look

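By the deposited values, Oasl1 had opposite signs in the 2 genotypes for the same fraction contrast. The control value was too small to hold its sign. It was 0.022 after renewed quantile normalisation and 0.048 after removal of a loess trend. The array labelled Lgr5-Hi minus that labelled Lgr5-Med was 0.40 in Zip7 KO and -0.014 in control, each from 1 array against 1, and the difference was not tested.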

How the results depend on the processing

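The counts of antiviral effectors at least 2-fold lower stayed at 6 under Lgr5-Hi and 8 under Lgr5-Med with the floor at percentile 99, with no floor, after renewed quantile normalisation, after centring, after removal of a loess trend, and, as a choice made after seeing the data, with low values set to the floor. The median under Lgr5-Hi was -1.23 in that last setting, since 2 KO values rise to the floor. At a size of 1.5-fold the counts were 8 and 8. The 36 differences of single genes moved by no more than 0.1 under the quantile alternative and under the loess alternative. Averaging probe sets could change none of these values, since each gene has 1 probe set. No paired analysis was possible because the labels carry no replicate numbers to pair. A fit with the fraction label as a block beside genotype would leave 1 residual degree of freedom and was not run. What remains limited is signal over background: Ifit2 was not measurable, and several KO values lay at or below the floor.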

Other observations

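Of the 26 genes at least 2-fold lower in Zip7 KO under both labels, 22 belong to a list or marker set read here, the 6 antiviral effectors included. The other 4 are named here after their values were seen. Reg3b, an antimicrobial lectin of the gut epithelium, differed by -2.36 under Lgr5-Hi and -3.16 under Lgr5-Med. Gm12250 differed by -2.02 and -1.71. Srgn, which encodes the granule proteoglycan serglycin of blood cells, differed by -1.14 and -1.37, and Rnf213 by -1.11 and -1.09.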
